A study of Mus musculus with 6 samples.

Results

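The organic solute carriers of the kidney are membrane proteins that move sugars, amino acids, peptides, organic anions and cations, carboxylates and fatty acids across cells, chiefly those of the renal tubule. They were taken by gene name from the authors' deposited table of test results. Every gene was used whose symbol there is of the Slco family or of the Slc families 1, 2, 3, 5, 6, 7, 13, 15, 16, 17, 22, 27, 36, 38 and 47. This gave 162 of the 18421 listed genes, of which 64 belong to families for amino acids and peptides, 47 to families for organic ions, 25 to families for sugars, 20 to families for carboxylates and 6 to the family for fatty acids. Of the 162 genes, 3 are not protein coding in the annotation: the antisense gene Slc13a2os and the pseudogenes Slc2a4rg-ps and Slc22a13b-ps. Slc7a6os meets the naming rule but is no carrier. The annotation holds 166 protein-coding genes with such names, and 6 of them have no row in the table. A further 2 listed genes bear such a name only in the annotation, not as the authors' symbol, and are not among the 162.

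Kidneys of 3 mice without Dkk3 (Dkk3-/-) and of 3 C57Bl/6 mice with intact Dkk3, on the background strain C57Bl/6 per the labels, were sequenced 7 days after unilateral ureteral obstruction. In this operation the ureter of 1 kidney is tied. All 6 samples are titled as renal tissue 7 days after it, so none came from an unoperated mouse. The titles do not say which kidney was taken, and the obstructed kidney is assumed here. The Dkk3 protein is secreted and belongs to the dickkopf proteins, and the comparison asked what its loss changes in the obstructed kidney. The labels give neither the age nor the sex of the mice, nor the promoter or cell type of the deletion, nor the number of backcrosses, so effects of colony cannot be told apart from those of the deletion. The 4 Y-linked genes Ddx3y, Eif2s3y, Kdm5d and Uty averaged 25.9 to 62.4 CPM, and the X-inactivation gene Xist averaged 0.260 CPM per the authors' deposited table. Xist stood at 1.87 on the log2 scale (unadjusted p = 0.0226, adjusted p = 0.319), and the Y-linked genes stood between -0.07 and 0.15, per the authors' deposited table.

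The proximal tubule reclaims filtered sugar, amino acids and carboxylates through carriers of its brush border, most of them driven by sodium, and hands them to the blood through carriers of the basolateral side. Organic anion carriers of the Slc22 family work in the other direction as well: Oat1 and Oat3 draw drugs, toxins and metabolic waste from the blood for secretion into the urine. Many of these carriers are high only in a mature proximal tubule and are known to fall when the tubule is injured. Others, such as the glucose carrier Glut3 and the glutamine carriers of the Slc38 family, serve leukocytes and growing cells too.

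The files hold a test result per gene and no value per mouse, so the spread between single mice cannot be shown. Each gene has a log2 fold change, read as knockout over wild type because Dkk3 itself is negative (-4.43, adjusted p = 2.98e-67 per the authors' deposited table), an average level in read counts scaled to library size (CPM), a likelihood-ratio score and p-values. Approximate standard errors (SE), 95% intervals and genotype levels were derived from these. Genes with an edgeR p under 0.05 after Benjamini-Hochberg adjustment are described as called, adjusted over all 18421 genes.

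Among the 162 carriers 8 were called, 5 lower and 3 higher in the knockout. That is 4.94% of the carriers, against 2.06% of all listed genes. In the lower direction the share was 3.09% of the carriers against 0.89% of all genes, and in the higher direction 1.85% against 1.17%. At an unadjusted p under 0.05, 22 carriers were lower (13.6%, against 4.71% of all genes) and 4 were higher (2.47%, against 5.91%). The fold changes of 105 carriers were negative (64.8%, against 47.7% of all genes), and their median was -0.12 on the log2 scale against 0.01 over all genes. With an F distribution in place of the chi-square of the authors' test, which allows for the small number of mice, 2 carriers were called, Slc6a16 and Slc17a7. The share of all genes called with that distribution is not reported here.

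**Figure D1:**
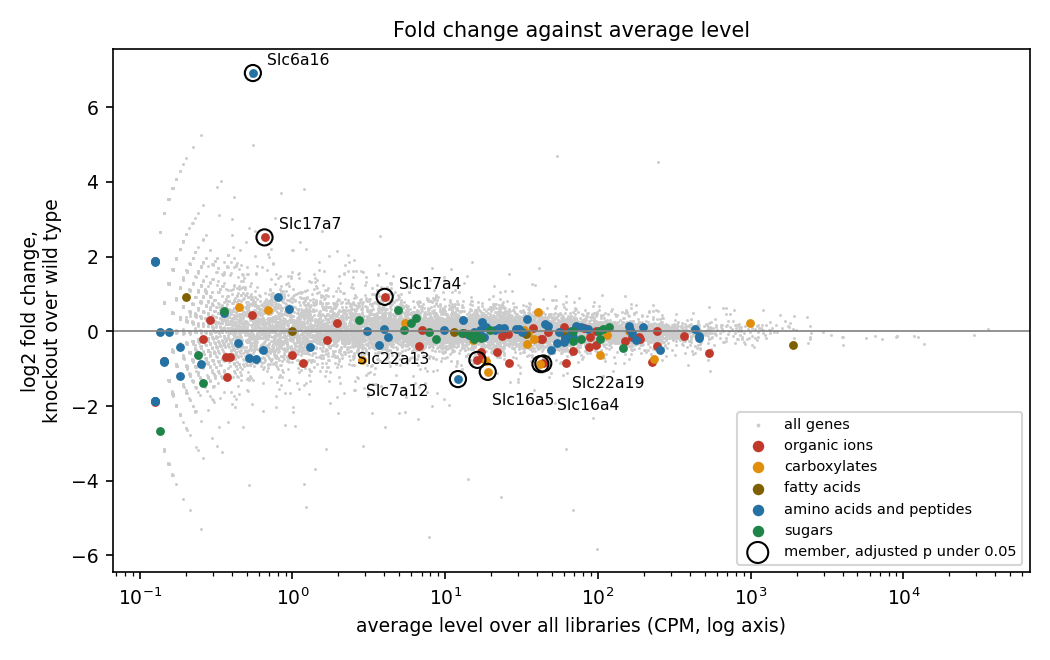
Log2 fold change of knockout over wild type (vertical axis) against the average level in CPM (horizontal log axis) for all 18421 genes in grey and the 162 carriers in colour, with circles around the 8 called carriers. The 5 called lower carriers lie between 12.1 and 43.9 CPM, while Slc6a16 and Slc17a7 lie under 1 CPM.

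Between the groups the carriers differed in where their fold changes lay. The median log2 fold change was -0.20 for organic ion carriers, -0.13 for carboxylate carriers, -0.05 for fatty acid carriers, -0.04 for sugar carriers and -0.02 for amino acid and peptide carriers. Called members numbered 4 of 47 among organic ion carriers (8.51%; 2 higher and 2 lower), 2 of 20 among carboxylate carriers (10.0%, both lower) and 2 of 64 among amino acid carriers (3.12%; 1 higher and 1 lower). Of all genes 2.06% were called, 1.17% higher and 0.89% lower, and the share of amino acid carriers is near that. No sugar or fatty acid carrier was called by edgeR or with the F distribution. At an unadjusted p under 0.05, 1 of the 25 genes of the sugar families was lower, and no fatty acid carrier passed. That 1 gene was Slc5a8, which carries lactate and nicotinate. At the same p, 12 of 47 organic ion carriers were lower and 2 higher, and 7 of 20 carboxylate carriers were lower and 1 higher. Among the 64 amino acid carriers 2 were lower and 1 higher. Over all genes the shares were 4.71% lower and 5.91% higher. These differences between groups were described and not tested, since carriers of the same kidney vary together.

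**Figure D2:**
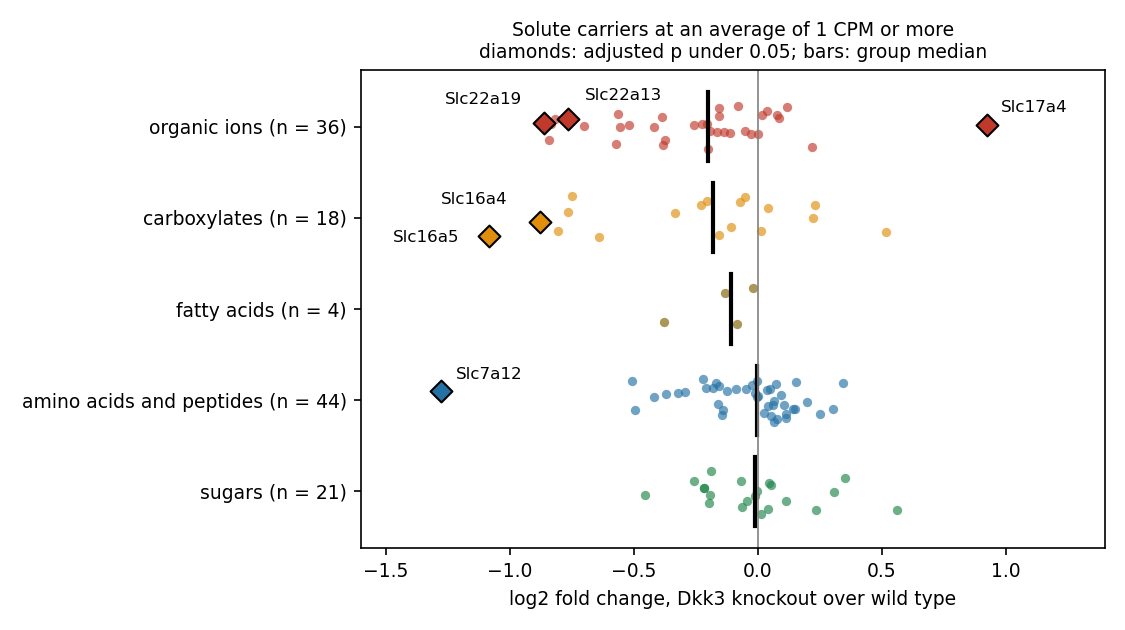
Log2 fold change (horizontal axis) of the 123 carriers at an average of 1 CPM or more, by substrate group, each point a gene, diamonds the called genes and black bars the group medians. Organic ion and carboxylate carriers reach furthest to the left, apart from Slc7a12, and Slc17a4 is the 1 called carrier on the right.

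In the Slc22 family of organic ion carriers nearly every gene had a value below 0. Of its 24 listed genes 23 had negative fold changes (95.8%, against 47.7% of all genes), with a median of -0.45, and 11 of the 24 were lower at an unadjusted p under 0.05 (45.8%, against 4.71% of all genes). The exception was the cation carrier gene Slc22a3 at an average of 0.547 CPM. The levels of the family derived from the table sum to 2184 CPM in wild type and 1604 CPM in the knockout. Much of these sums comes from genes that were not called, such as Slc22a12 (a derived 636 and 428 CPM) and Slc22a6 (289 and 164 CPM). The sums also include the pseudogene Slc22a13b-ps. In bulk tissue, fewer cells of a type and less RNA per cell cannot be told apart.

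To show the regions from which these genes are read, promoters of 3 called lower carriers and of Slc22a6, the Oat1 gene, are printed below. They run from 250 bases before to 50 after the start (RefSeq, GRCm38.p6). The promoter set used here has none for the other called lower carriers, Slc16a5 and Slc7a12. Capitals mark the letters TATAAA on either strand.

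Slc22a6 (chr19:8617746-8618045, plus strand): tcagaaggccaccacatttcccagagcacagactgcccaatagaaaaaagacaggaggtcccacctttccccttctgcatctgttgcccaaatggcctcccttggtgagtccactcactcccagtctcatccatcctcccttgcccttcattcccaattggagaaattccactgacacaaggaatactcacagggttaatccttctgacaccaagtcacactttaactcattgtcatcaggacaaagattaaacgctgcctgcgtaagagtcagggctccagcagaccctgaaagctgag

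Slc22a19 (chr19:7711261-7711560, minus strand): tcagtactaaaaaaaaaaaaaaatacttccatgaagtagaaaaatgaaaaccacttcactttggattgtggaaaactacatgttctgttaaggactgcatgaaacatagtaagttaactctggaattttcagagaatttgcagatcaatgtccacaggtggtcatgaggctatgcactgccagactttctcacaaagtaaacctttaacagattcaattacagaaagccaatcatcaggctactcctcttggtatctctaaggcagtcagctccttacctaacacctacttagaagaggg

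Slc22a13 (chr9:119209056-119209355, minus strand): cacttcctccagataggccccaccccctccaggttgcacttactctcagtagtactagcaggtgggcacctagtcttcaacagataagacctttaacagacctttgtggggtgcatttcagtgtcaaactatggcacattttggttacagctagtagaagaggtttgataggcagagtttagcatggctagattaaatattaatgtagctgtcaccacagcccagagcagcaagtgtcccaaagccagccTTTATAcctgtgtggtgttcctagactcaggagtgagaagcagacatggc

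Slc16a4 (chr3:107290980-107291279, plus strand): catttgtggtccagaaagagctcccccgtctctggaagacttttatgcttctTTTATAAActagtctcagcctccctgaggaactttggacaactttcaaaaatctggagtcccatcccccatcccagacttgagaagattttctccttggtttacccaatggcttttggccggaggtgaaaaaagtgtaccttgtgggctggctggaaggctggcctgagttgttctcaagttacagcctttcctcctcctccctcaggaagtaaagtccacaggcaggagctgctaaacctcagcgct

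These letters start at -198 and -196, on either strand, in the promoter of Slc16a4 and at 1, the first base of the transcript, in that of Slc22a13, and are in neither of the others. The promoter set used here gave 122 of the 162 carriers a promoter, 155 promoters in all. TATAAA was in 18 of these (11.6%) and in 13.6% of all 32851 promoters. The core CAAAGTCCA of the site of the tubule factor HNF4, searched on both strands, was in 1 of the 155 (0.645%) and in 0.475% of all. A match of letters is not a bound site, and no match says only that these letters are not in the window.

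Both called genes of the family are organic anion carriers. Slc22a19, the mouse anion carrier Oat5, fell by 0.86 on the log2 scale (SE 0.25, adjusted p = 0.0320 per the authors' deposited table), from a derived 56.6 to 31.2 CPM. Slc22a13, the urate and nicotinate carrier Oat10, fell by 0.76 (SE 0.23, adjusted p = 0.0412 per the authors' deposited table), from a derived 20.4 to 12.0 CPM. Both calls ended with the F distribution and after division of the scores by their inflation factor, and that of Slc22a13 also without the genes of chromosome 7, where Dkk3 lies.

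The carriers of the classic secretion pathway had values of like size and did not pass. Slc22a6 (Oat1), which takes up organic anions from blood in exchange for dicarboxylates, stood at -0.82 (95% interval -1.36 to -0.27, adjusted p = 0.107 per the authors' deposited table). Slc22a8 (Oat3), its neighbour on the basolateral side, stood at -0.84 (-1.53 to -0.15, adjusted p = 0.269 per the authors' deposited table). Both levels were lower in the knockout by derivation, 164 against 289 CPM for Slc22a6 and 44.2 against 79.1 CPM for Slc22a8, with intervals below 0. Slc22a12, the urate reabsorber Urat1 of the brush border, stood at -0.57 (-1.05 to -0.09, adjusted p = 0.304 per the authors' deposited table). Slc22a7 (Oat2) stood at -0.52 with an adjusted p of 0.445 per the authors' deposited table.

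Carriers of organic cations and carnitine in the same family were not called. Slc22a2 (Oct2), which takes up cationic drugs from blood, stood at -0.16 (-0.49 to 0.18) per the authors' deposited table. Slc22a4 (Octn1) stood at -0.19, Slc22a5 (Octn2), the main carnitine carrier, at -0.16 and Slc22a21 at -0.20, with adjusted p from 0.737 to 0.836 per the authors' deposited table. With Slc22a3, none of these 5 had an unadjusted p under 0.05. The apical exchanger Slc47a1 (Mate1), which passes cations on into the urine, stood at 0.00 (-0.31 to 0.31) per the authors' deposited table.

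**Figure D3:**
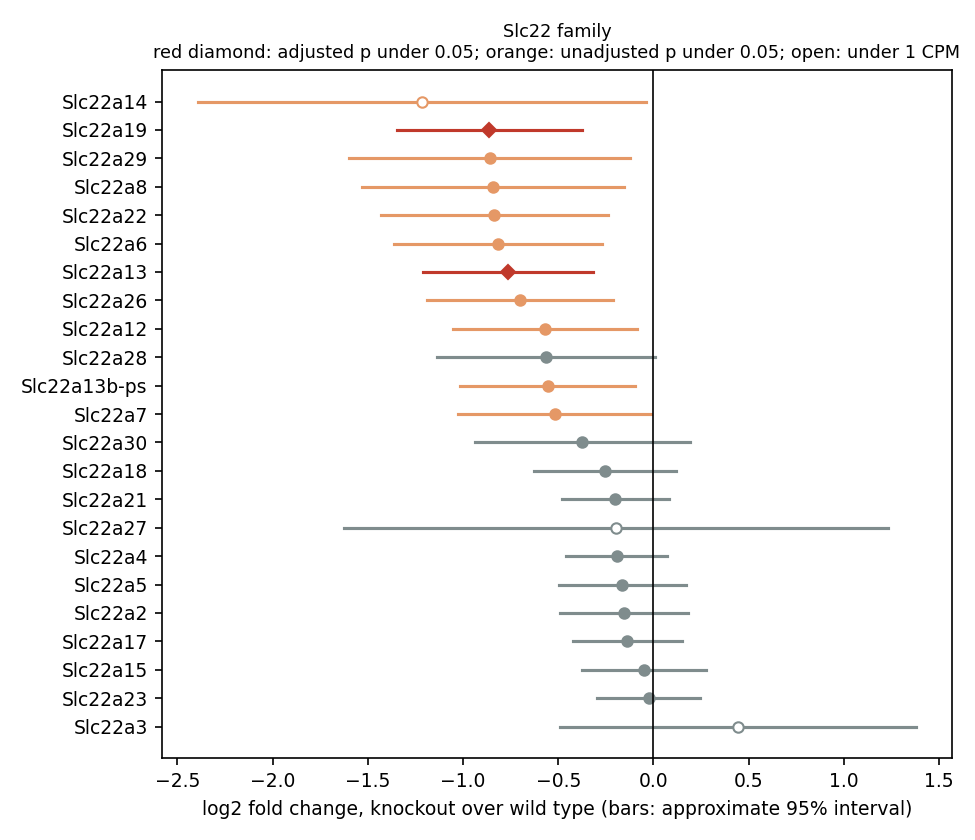
Log2 fold change (points) and approximate 95% interval (bars) of 23 of the 24 Slc22 genes, ordered by value, with open points under 1 CPM. Of the 23 points 22 lie left of 0, and the 2 called genes are Slc22a19 and Slc22a13.

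Several genes of the family are tandem neighbours. On chromosome 19, between 7673061 and 8723369 (GRCm38), lie Slc22a19, Slc22a26, Slc22a27, Slc22a28, Slc22a29, Slc22a30, Slc22a8, Slc22a6 and the amino acid carrier subunit gene Slc3a2. Of these 9, 8 had negative fold changes, and the exception was Slc3a2 at 0.04 per the authors' deposited table. Slc22a26 stood at -0.70 (adjusted p = 0.133), Slc22a29 at -0.86 (adjusted p = 0.317), Slc22a28 at -0.56 (adjusted p = 0.491) and Slc22a30 at -0.37 (adjusted p = 0.757) per the authors' deposited table. Slc22a27 averaged 0.260 CPM and stood at -0.20 (-1.63 to 1.23) per the authors' deposited table. These paralogs share sequence: 53.9% of the 50-nt stretches, the read length, in the transcripts of Slc22a28 also occur in other genes, mostly Slc22a30, so their levels are uncertain. On chromosome 9, 36.01% of the stretches of Slc22a13 occur in other genes, all of these in the pseudogene Slc22a13b-ps, which stood at -0.56 (adjusted p = 0.285 per the authors' deposited table). How the authors counted such reads is not given in the sources used here.

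Slc22a22 on chromosome 15, a mouse prostaglandin carrier, stood at -0.84 (adjusted p = 0.149) per the authors' deposited table. Slc22a14 stood at -1.21 at an average of 0.374 CPM. The orphan carrier genes Slc22a15, Slc22a17, Slc22a18 and Slc22a23 stood between -0.26 and -0.03 per the authors' deposited table. Of these Slc22a18 lies on chromosome 7.

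In the Slc17 family 2 of 9 genes were called (22.2%, against 2.06% of all genes), both higher, and 4 of the 9 were below 0. At 1 CPM or more 1 of its 5 genes was called, against 2.33% of all genes at that level. Slc17a4, an organic anion carrier also known from the intestine, rose by 0.92 on the log2 scale (SE 0.25, adjusted p = 0.0137 per the authors' deposited table), from a derived 2.77 to 5.26 CPM. Its call held with the inflation factor and without chromosome 7, and ended with the F distribution. Its 3 neighbours on chromosome 13, between 23806993 and 23915009, had values below 0. The urate carrier genes Slc17a1 (Npt1) and Slc17a3 (Npt4) stood at -0.11 and -0.39 (adjusted p = 0.941 and 0.548 per the authors' deposited table), at averages of 366 and 243 CPM. Slc17a2 stood at -0.69 per the authors' deposited table, at an average of 0.393 CPM. The lysosomal sialic acid carrier gene Slc17a5 stood at 0.08 per the authors' deposited table.

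Slc17a7, a vesicular glutamate carrier of neurons, rose by 2.52 (SE 0.50, adjusted p = 1.45e-04 per the authors' deposited table) at an average of 0.656 CPM. Slc6a16, an orphan of the neurotransmitter carrier family, rose by 6.92 (adjusted p = 6.99e-09 per the authors' deposited table) at an average of 0.550 CPM. At such levels a fitted fold change depends on the prior count, so its size is uncertain. Both genes lie on chromosome 7, at 45163949 to 45176142 and 45241085 to 45273367, 66.9 and 66.8 Mb from Dkk3. The 13 carriers on chromosome 7 hold 2 of the 3 called higher carriers, and on that chromosome 7.27% of all listed genes were called. The other 11 carriers there were not called, among them Slc5a11, Slco2b1 and Slc5a2, which lie nearest to Dkk3 at 11.1, 12.4 and 16.1 Mb and stood at 0.05, 0.08 and 0.11 per the authors' deposited table.

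The Slco family, which carries bile acids, steroid conjugates and prostaglandins, had no called gene among 12 in edgeR's test or with the F distribution. At an unadjusted p under 0.05, 1 was lower (8.33%, against 4.71% of all genes). That gene was Slco1a6, at -0.42 (-0.78 to -0.05, adjusted p = 0.344 per the authors' deposited table). Its neighbours on chromosome 6, Slco1a1 and Slco1a5, stood at 0.02 and 0.04 per the authors' deposited table. Slco4c1, a basolateral carrier of cardiac glycosides, stood at -0.38, and the prostaglandin carrier gene Slco2a1 at 0.12, with adjusted p of 0.640 and 0.823 per the authors' deposited table.

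Carboxylate carriers included the most clearly lowered gene at a moderate level. Slc16a5, the monocarboxylate carrier Mct6 (chr11:115462474-115474398), fell by 1.09 in log2 terms (SE 0.22, adjusted p = 2.34e-04 per the authors' deposited table), or 2.12-fold, from a derived 25.8 to 12.2 CPM. Slc16a4, the orphan Mct5 (chr3:107291230-107312115), fell by 0.88 (SE 0.26, adjusted p = 0.0403 per the authors' deposited table), from a derived 54.4 to 29.6 CPM. The Slc16a5 call held with the inflation factor and without chromosome 7 and ended with the F distribution, and the Slc16a4 call ended in all 3. Slc16a9, a carnitine and monocarboxylate carrier, stood at -0.64 and was called at a threshold of 0.1 (adjusted p = 0.0662 per the authors' deposited table). Slc16a14 stood at -0.81 (adjusted p = 0.365 per the authors' deposited table).

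The lactate and pyruvate carriers of the same family were not called. Slc16a1 (Mct1) stood at 0.52 (0.08 to 0.96, adjusted p = 0.307 per the authors' deposited table), from a derived 33.4 to 47.7 CPM. It was the 1 carboxylate carrier above 0 at an unadjusted p under 0.05. Slc16a3 (Mct4), which exports lactate from glycolytic cells, stood at 0.22 and Slc16a7 (Mct2) at -0.16, with adjusted p of 0.939 and 0.892 per the authors' deposited table.

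The sodium-coupled Slc13 carriers had no call among 6 in edgeR's test or with the F distribution. At an unadjusted p under 0.05, 3 of them were lower (50.0%, against 4.71% of all genes). Slc13a3 (NaDC3), the basolateral dicarboxylate carrier that feeds the Oat exchangers, stood at -0.75 (-1.33 to -0.17, adjusted p = 0.213 per the authors' deposited table). Slc13a2 (NaDC1), which reclaims citrate at the brush border, stood at -0.33 (-0.58 to -0.08, adjusted p = 0.186 per the authors' deposited table). Its antisense partner Slc13a2os stood at -0.23 per the authors' deposited table, and the counting of strand is not stated, so the levels of both are uncertain. Slc13a4, a sulfate carrier, stood at -0.76 at an average of 2.83 CPM. Slc13a1 (NaS1), the abundant sulfate carrier of the brush border, stood on the other side at 0.23 (-0.10 to 0.56) and an average of 986 CPM per the authors' deposited table.

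Among amino acid and peptide carriers, Slc7a12 fell and most others lay near 0. Slc7a12, the subunit Asc-2 of an amino acid carrier (chr3:14480697-14505830), fell by 1.28 in log2 terms (SE 0.27, adjusted p = 3.20e-04 per the authors' deposited table), or 2.43-fold, from a derived 17.2 to 7.08 CPM. Its call held with the inflation factor and without chromosome 7 and ended with the F distribution. At 1 CPM or more the median of the 44 listed amino acid carriers was 0.00.

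The major brush border carriers of amino acids were not called. Slc6a19 (B0AT1), which takes up neutral amino acids, stood at -0.32 (-0.73 to 0.09) and Slc6a20b, a proline carrier, at -0.29 (-0.70 to 0.12) per the authors' deposited table. Slc6a18 stood at -0.17 (-0.54 to 0.20) per the authors' deposited table, at an average of 460 CPM. The 2 subunits of the cystine carrier, Slc3a1 (rBAT) and Slc7a9, stood at -0.13 (-0.45 to 0.20) and 0.00 (-0.29 to 0.28) per the authors' deposited table. Slc7a13, a second partner of rBAT, stood at -0.50 (adjusted p = 0.663 per the authors' deposited table). The glutamate carrier gene Slc1a1 stood at -0.22 and the peptide carrier gene Slc15a2 (Pept2) at -0.21, with adjusted p of 0.662 and 0.790 per the authors' deposited table.

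Amino acid carriers of the blood side and of cell volume lay as close to 0, apart from Slc38a3. Slc38a3 (Snat3), which brings in glutamine for ammonia production, stood at -0.51 (-0.95 to -0.07, adjusted p = 0.317 per the authors' deposited table). The basolateral exchangers Slc7a7 and Slc7a8 stood at 0.11 and -0.14, and their common subunit gene Slc3a2 (4F2hc) at 0.04 with an interval of -0.20 to 0.29, per the authors' deposited table. The taurine carrier gene Slc6a6 stood at 0.07 and the creatine carrier gene Slc6a8 at 0.11, at averages of 435 and 198 CPM per the authors' deposited table. The amino acid carrier genes of growing and stressed cells, Slc7a5 (Lat1) and Slc7a11 (xCT), stood at -0.09 and -0.42, with adjusted p of 0.963 and 0.823 per the authors' deposited table. The largest positive values at 5 CPM or more were those of the arginine carrier gene Slc7a2 (0.34) and the glutamate carrier gene Slc1a2 (0.30), with adjusted p of 0.757 and 0.687 per the authors' deposited table. Slc36a2, a proline and glycine carrier, stood at 0.92 at an average of 0.807 CPM and Slc38a6 at 0.25, with adjusted p of 0.491 and 0.609 per the authors' deposited table. Slc38a6 shares 35.5% of its stretches with other genes.

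The main sugar carriers of the tubule had intervals that include 0. The sodium-glucose carriers Slc5a2 (Sglt2) and Slc5a1 (Sglt1), which reclaim filtered glucose, stood at 0.11 (-0.23 to 0.46) and -0.22 (-0.53 to 0.09) per the authors' deposited table, at averages of 119 and 103 CPM. The basolateral exit carriers Slc2a2 (Glut2) and Slc2a1 (Glut1) stood at 0.00 (-0.37 to 0.37) and -0.20 (-0.43 to 0.03) per the authors' deposited table. The fructose carrier gene Slc2a5 stood at -0.22, the urate carrier gene Slc2a9 at -0.07 and the inositol carrier gene Slc5a3 at 0.05 per the authors' deposited table. The leukocyte glucose carrier genes Slc2a3 (Glut3) and Slc2a6 stood at 0.56 (-0.02 to 1.14) and 0.23 (-0.24 to 0.71) per the authors' deposited table.

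Members of the Slc5 family that carry other substrates were not called either. Slc5a8 (Smct1), which reclaims lactate and nicotinate with sodium, stood at -0.46 (-0.77 to -0.14, adjusted p = 0.136 per the authors' deposited table), the group's 1 gene at an unadjusted p under 0.05. Slc5a12 (Smct2), its partner in the early proximal tubule, stood at -0.26 (adjusted p = 0.770 per the authors' deposited table). The choline carrier gene Slc5a7 and Slc5a4b averaged under 1 CPM and stood at -1.38 and -2.68 per the authors' deposited table, with intervals that include 0. The iodide carrier gene Slc5a5, also under 1 CPM, stood at 0.55 and the vitamin carrier gene Slc5a6 at -0.04 per the authors' deposited table.

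Among fatty acid carriers, Slc27a2 (Fatp2) was the most abundant carrier of all 162 by CPM per kilobase of annotated exons, at 503, ahead of Slc22a12 at 235 and Slc3a1 at 202. It stood at -0.38 (-0.85 to 0.09, adjusted p = 0.649 per the authors' deposited table), from a derived 2135 to 1643 CPM. Slc27a1, Slc27a3 and Slc27a4 stood between -0.13 and -0.02 per the authors' deposited table. Slc27a5, a bile acid ligase of the liver, averaged 0.202 CPM.

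**Figure D4:**
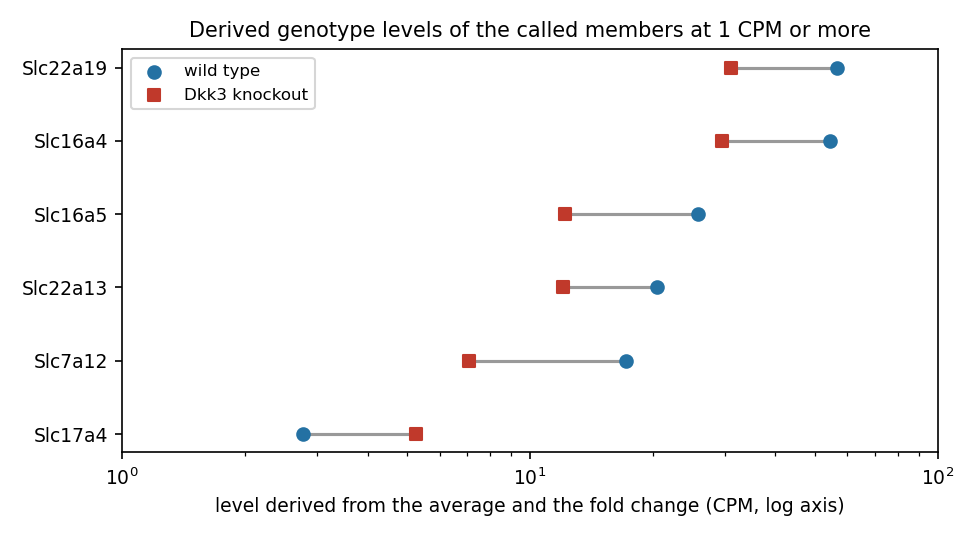
Levels in CPM (log axis) derived for each genotype from the average and the fold change, for the 6 called carriers at 1 CPM or more, circles for wild type and squares for knockout. The knockout lies left of wild type for all but Slc17a4, and no spread between mice can be drawn.

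Carriers of both sides of the proximal tubule cell had medians below 0. The 27 listed brush border carriers had a median log2 fold change of -0.21, with 24 below 0. Of these 27, 1 was called, Slc22a13 (3.7%), and 4 were lower and none higher at an unadjusted p under 0.05. The 16 basolateral carriers had a median of -0.16, with 11 below 0, none called and 5 lower and 1 higher at an unadjusted p under 0.05. The 19 carriers known from leukocytes and activated cells had a median of 0.08, with 7 below 0, none called and none at an unadjusted p under 0.05. Over all genes the median was 0.01, 47.7% were below 0 and 2.06% were called. At that unadjusted p 4.71% of all genes were lower and 5.91% higher. These lists were made with earlier results of these data known.

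Genes that mark cells of the kidney also had values away from 0. All 18 proximal tubule markers were below 0 with a median of -0.39, and 1 was called, Pck1, whose enzyme serves glucose synthesis (-1.05, adjusted p = 0.0224 per the authors' deposited table). Their derived levels sum to 27783 CPM in wild type and 21661 CPM in the knockout. Most of these sums is the 1 gene Kap, with a derived 15300 and 11992 CPM (adjusted p = 0.757 per the authors' deposited table). The defining endocytosis receptor genes Lrp2 and Cubn stood at -0.47 and -0.41, at averages of 546 and 168 CPM per the authors' deposited table. The 8 collecting duct markers were all below 0 (median -0.72, 5 called), and 6 of 8 loop and distal tubule markers were (median -0.32, 1 called). The 8 T cell markers were all above 0 (median 1.52, 6 called), with derived sums of 22.6 and 51.8 CPM, and the 11 macrophage markers were all above 0 (median 0.45, none called and 7 at an unadjusted p under 0.05), with derived sums of 875 and 1194 CPM. The medians were 0.26 for 8 fibroblast markers, 0.11 for 6 endothelial markers and 0.16 for 5 podocyte markers, with none called in edgeR's test and 1 fibroblast marker, Lum, lower at an unadjusted p under 0.05. With the F distribution 2 T cell and 2 collecting duct markers were called, and none of the proximal tubule or of the loop and distal tubule. No marker was listed at 0. In edgeR's test 2.06% of all genes were called, 1.17% higher and 0.89% lower. The part of these cell types in the values of the carriers was not tested, and a range over mice could not be given.

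**Figure D5:**
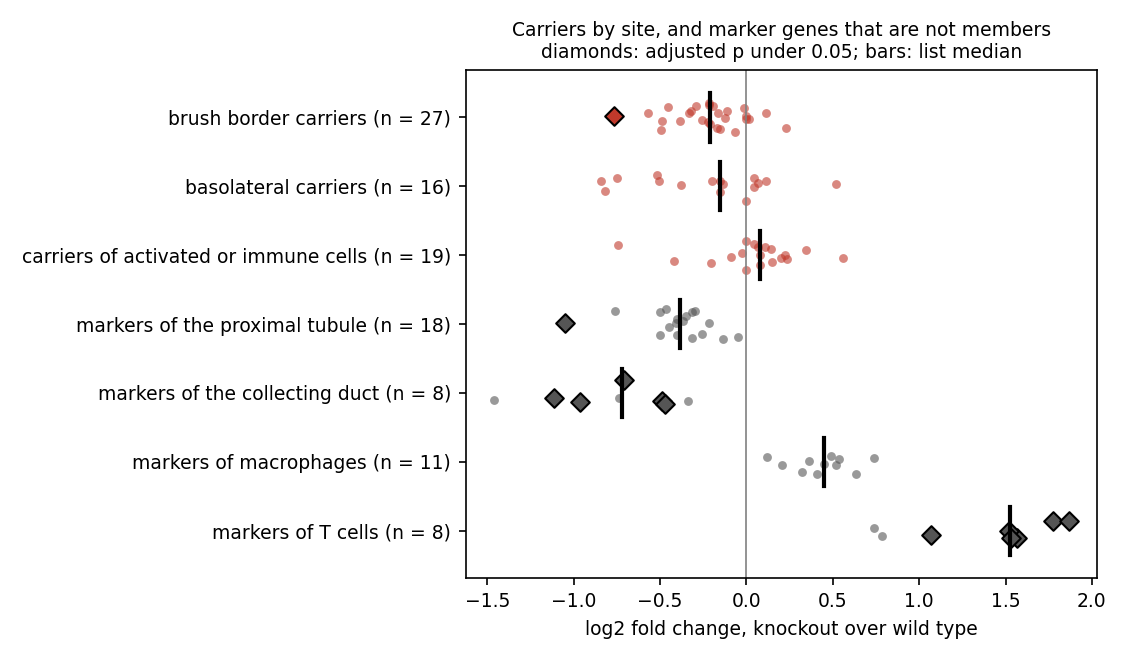
Log2 fold change (horizontal axis) of carriers by site and of marker genes, each point a gene, diamonds the called genes and black bars the list medians. The medians of brush border (-0.21) and basolateral carriers (-0.16) lie between that of the proximal tubule markers (-0.39) and 0, and that of the carriers of activated cells (0.08) lies below that of the macrophage markers (0.45).

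The other genes of tubular transport, from lists of partners, pumps, exporters and regulators, had 1 call. Of all genes 2.06% were called, so 1 call over these lists is not read as a result about them. Of 13 listed partners of the carriers 12 were below 0 with a median of -0.11 and none called, and the scaffold gene Pdzk1 had the smallest p (-0.38, adjusted p = 0.425 per the authors' deposited table). The brush border chaperone gene Tmem27 stood at -0.11, and the chaperone gene Bsg of the lactate carriers at -0.02, per the authors' deposited table. Of 15 exchangers, pumps and channels that power the carriers 13 were below 0 with a median of -0.28, and the potassium channel subunit gene Kcne1 fell by 1.24 (adjusted p = 1.51e-04 per the authors' deposited table). The sodium pump subunit gene Atp1b1 stood at -0.37 per the authors' deposited table.

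The exporters and transcription factors were not called. Of 9 ABC drug exporters 3 were higher at an unadjusted p under 0.05 (33.3%, against 5.91% of all genes), the multidrug genes Abcb1a (0.44) and Abcb1b (0.43) and the anion exporter gene Abcc4 (0.25), with adjusted p from 0.135 to 0.383 per the authors' deposited table. The median of the 9 was -0.01. Of 18 transcription factors that govern tubular carriers the median was -0.09, and 1 was lower at an unadjusted p under 0.05, the mitochondrial coactivator gene Ppargc1a (-0.35, adjusted p = 0.258 per the authors' deposited table). The tubule factor gene Hnf4a stood at -0.12 per the authors' deposited table, with an SE of 0.18. With the F distribution these 27 genes gave no call either.

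The authors' own test of Gene Ontology terms covers terms for organic substrates, for all transport and for membranes. The cutoff and gene sets behind its counts of higher and lower genes are not known here. These counts therefore need not match the calls above, and a count of none does not mean that no carrier was called. In the authors' deposited table, the term for organic anion transmembrane transporter activity held 118 genes, of which none was counted higher and 2 lower (p = 0.291). The term for amino acid transmembrane transporter activity held 61 genes, with 1 lower, and that for the brush border membrane 51 genes, with 1 lower, per the authors' deposited table. For carboxylic acids the term held 89 genes with 1 lower (p = 0.557), from the authors' deposited table. For monocarboxylic acids it held 27 genes with none lower or higher, and for carbohydrates 26 genes with 1 lower, per the authors' deposited table. The term for organic cation transmembrane transporter activity held 16 genes with 2 lower (p = 0.00906, adjusted p = 0.504 from the authors' deposited table). The general term for transmembrane transporter activity held 789 genes with 24 lower and 9 higher (adjusted p = 2.94e-04 for lower, from the authors' deposited table). The term for the apical plasma membrane, which spans all segments and inorganic ions, held 231 genes with 15 lower (adjusted p = 1.41e-05 per the authors' deposited table).

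Low levels limit part of the set. Of the 162 carriers 39 averaged under 1 CPM, where the median approximate standard error was 0.79 on the log2 scale, against 0.18 for the 123 at 1 CPM or more. Among those 123, 6 were called (4.88%, against 2.33% of all genes at that level), 5 of them lower (4.07%, against 1.05%). There 81 were below 0 and 21 were lower at an unadjusted p under 0.05 (17.1%, against 5.13%). Values of single genes under 1 CPM reached -2.68 with no call.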

How the data were processed

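RNA of kidneys from 3 Dkk3 knockout and 3 wild-type mice was read as single reads of 50 nt from 1 µg of RNA a sample, in pools of 10, per the labels. Names given by the submitters' processing notes are edgeR and mm10, with no version. For the aligner, the counter, strand handling and low-level filters the sources used here give nothing. Per the file headers, the authors deposited for each gene the log2 fold change, the average CPM as log2, the score of a likelihood-ratio test, its p-value and the FDR, and for Gene Ontology terms gene counts and p-values. No counts or values per sample were used here, so depth is not known and intervals that need it are left out. The planned quasi-likelihood fit of counts was replaced by the authors' test. Their p-value matched the score on a chi-square distribution and their FDR the Benjamini-Hochberg value, within a relative 0.0001, for all 18421 rows.

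The p-values of genes test for a difference between the genotypes, with 3 mice a group. They do not show the spread between single mice. The standard error was taken as the size of the log2 fold change over the square root of the score, and 95% intervals as normal ones. Genotype levels were derived from the average CPM and the fold change, with libraries taken as equal. Lengths and positions come from GENCODE vM21 (GRCm38, the assembly of mm10), which placed all 162 carriers. Shared stretches of 50 nt were counted on both strands in its transcripts. Neighbours are carriers under 1 Mb apart. The named genes are called carriers, the 5 smallest p of each group, the largest changes at 5 CPM or more, the 3 most abundant of each group and a fixed list of tubular carriers. Members, lists and rules were chosen with earlier results of these data known. Scripts were tested on simulated data. Python 3.11.15, pandas 2.3.3, numpy 2.4.6, scipy 1.17.1 and matplotlib 3.10.9 were used.

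Calls were recomputed at a threshold of 0.1, with fold changes of 1.5 or more, with genes at 1 CPM or more, with an F distribution on 14 denominator degrees of freedom (4 from the residuals and 10 assumed as prior), after division of the scores by their inflation factor of 1.09, after centring on the median and without chromosome 7. Some genes of the lists are counted but not reported here by name.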

Additional observations from a re-analysis of the deposited data

How the results depend on the processing

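Of the 8 carriers called by the authors' test (3 higher, 5 lower), 2 were called with the F distribution (0 lower), 5 with the inflation factor (2 lower) and 4 without chromosome 7 (1 higher, 3 lower). At 1 CPM or more 6 were called, 1 of them higher. Organic ion carriers gave 1, 2 and 2 calls in place of 4 with the F distribution, the inflation factor and without chromosome 7, and carboxylate carriers gave 0, 1 and 1 in place of 2. Amino acid carriers gave 1 call in place of 2 with the F distribution, without chromosome 7 and at 1 CPM or more. Leaving out Dkk3's chromosome leaves out genes. With the F distribution 20 carriers were lower and 4 higher at an unadjusted p under 0.05. The shares of all genes with the F distribution, with the inflation factor and without chromosome 7 are not reported here. A loss of calls is therefore not read as particular to the carriers. At an adjusted p under 0.1 Slc16a9 was added, and a fold change of at least 1.5 and centring kept all 8. That fold left 3 of 5 called collecting duct markers. Under the alternatives run no group median changed its sign, but that of the amino acid carriers, -0.02 over all members, was 0.01 at 10 CPM or more. No paired analysis was possible because the files hold no values per sample, and leaving out replicates, other normalizations and other count tests were not run for the same reason. The depth is unknown.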
